A study of Mus musculus with 28 samples.

Results

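The Bcl2 family of apoptosis regulators was followed through 27 single mouse embryos, 14 blastocysts and 13 morulae, in a study of the loss of CTCF, a DNA-binding zinc finger protein at which loops formed by cohesin stop. The deposited data name the blastocysts E3.5 and the morulae E2.5, usually read as embryonic days. The family was taken as a list of 10 genes: the survival proteins Bcl2, Bcl2l1 (Bcl-xL) and Mcl1, the pore-forming effectors Bax and Bak1, and the BH3-only proteins Bid, Bad, Bcl2l11 (Bim), Bbc3 (Puma) and Pmaip1 (Noxa). All 10 were among the 16745 genes of the morula table and 9 among the 15582 genes of the blastocyst table, where Bak1 had no row and was not analysed here. At each stage 7 members were abundant enough to be tested, with at least 10 CPM (reads of the gene per 1000000 reads) in at least 3 embryos, and Bcl2, Bbc3 and Bak1 were not.

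These proteins decide whether a cell opens the outer membrane of its mitochondria. Survival members hold Bax and Bak1 in check, BH3-only members sense damage or lost survival signals and tip that balance, and open pores release cytochrome c, which builds the Apaf1 apoptosome and starts the caspases. Bax, Bbc3 and Pmaip1 are known targets of p53. Some cells of the normal mouse blastocyst die by apoptosis, mostly in the inner cell mass.

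All embryos were of the CD1 strain, and none of the labels gives a treatment, a Cre driver or the part of Ctcf that was removed. Blastocysts were labelled WT_flfl (n = 3, a wild type with floxed alleles as such a code is usually read), het (n = 4, heterozygous), M_KO (n = 4) and MZ_KO (n = 3). Morulae were labelled het (n = 3), del (n = 4) and MZKO (n = 6). In this field M usually means loss of the maternal product and MZ loss of the maternal and zygotic product together, and what del adds is not given. MZ_KO and M_KO titles carry the prefix C7, WT_flfl and het blastocysts N89, MZKO morulae C50, and del and het morulae N2. Prefix and group therefore cannot be told apart where MZ_KO or M_KO is set against WT_flfl or het, or MZKO against het or del. MZ_KO and M_KO share a prefix, as do WT_flfl and het blastocysts, and del and het morulae. The 14 blastocysts analysed were sequenced in batch 1 and the 13 morulae in batch 2, so levels were compared within a stage. Values are given in the order of the embryo numbers: WT_flfl 1, 7 and 9, het 3, 5, 6 and 8, M_KO 1, 3, 4 and 5, MZ_KO 2, 6 and 7, and in morulae het 1, 5 and 7 and del 2, 3, 4 and 6.

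Ctcf RNA checked the labels MZ_KO, MZKO and del, and was not used to tell WT_flfl, het and M_KO apart. It stood at 2.92, 4.23 and 3.72 CPM in the MZ_KO blastocysts, against 53.2 to 102 CPM in the other blastocysts. In morulae it reached at most 8.68 CPM in MZKO and 5.81 CPM in del, against 26.1, 35.1 and 54.6 CPM in het. Read totals lay between 7377302 and 27883060 in blastocysts and between 12136606 and 20414013 in morulae, apart from del 6 with 1635553 reads. Haemoglobin and other blood transcripts took up to 3.45% of the reads of WT_flfl 1 and 3.15% of het 6. These are whole embryos, so fewer cells with a transcript and less of it per cell cannot be told apart.

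CTCF binds DNA directly, so the starts of the members were read for its motif, taken as the most fixed bases of the CTCF consensus (its core), on both strands. RefSeq held 15 start sites for 9 of the members, and the 250 bases before each were searched. The core was found before 1 of the 15 starts, a start of Bbc3, and in 2.07% of all 32851 such windows. The shorter CCCTC, from which CTCF takes its name, is common: it stood in 11 of the 15 windows and in 60.5% of all windows. The Bbc3 window (chr7:16310011-16310260 of GRCm38.p6, plus strand) is shown with the core in capitals, on the reverse strand from base -134 before the start. The windows of Bax (chr7:45466899-45467148, minus strand), which holds neither motif, and of Bcl2l1 (chr2:152831729-152831978, minus strand), which holds CCCTC on the reverse strand from base -225 and no core, are given because these genes came nearest to the threshold below. The Bbc3 window lies inside the gene, before a downstream start, and no window shown holds an annotated exon base. A match describes letters only and was not tested for binding.
Bbc3: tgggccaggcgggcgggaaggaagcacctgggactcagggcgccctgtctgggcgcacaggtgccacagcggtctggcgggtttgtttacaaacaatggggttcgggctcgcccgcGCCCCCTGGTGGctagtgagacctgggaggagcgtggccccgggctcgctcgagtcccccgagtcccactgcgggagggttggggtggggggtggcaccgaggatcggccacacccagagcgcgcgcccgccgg
Bax: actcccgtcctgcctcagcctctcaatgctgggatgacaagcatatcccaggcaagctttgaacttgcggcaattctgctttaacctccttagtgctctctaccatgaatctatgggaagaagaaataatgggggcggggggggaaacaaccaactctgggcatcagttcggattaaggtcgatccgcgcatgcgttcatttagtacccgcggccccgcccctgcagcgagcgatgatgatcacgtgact
Bcl2l1: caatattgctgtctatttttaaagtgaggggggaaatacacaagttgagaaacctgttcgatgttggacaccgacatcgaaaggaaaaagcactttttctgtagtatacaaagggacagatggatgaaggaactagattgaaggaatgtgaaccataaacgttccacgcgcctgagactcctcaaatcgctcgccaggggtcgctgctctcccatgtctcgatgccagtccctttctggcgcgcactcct

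Bax, whose protein forms the pore, was the most abundant member per length in every embryo. In CPM per kilobase of exon its median was 117 over the 14 blastocysts and 82.1 over the 13 morulae. In blastocysts the survival gene Mcl1 came second at a median of 60.2 and Bad next at 32.8 CPM per kilobase, in this order in each of the 14 embryos. Bcl2l1 followed at 10.7, and the ranges of Bad and Bcl2l1 were apart. Below it by median, Pmaip1 (3.78), Bid (3.10), Bcl2l11 (2.18) and Bbc3 (1.98 CPM per kilobase) changed places between embryos. In MZ_KO 2 Bid also stood above Bcl2l1, at 9.63 against 6.41 CPM per kilobase. Bcl2, the gene that names the family, came last at a median of 0.140 CPM per kilobase. Among the survival genes of the member list, the blastocysts carried mainly transcripts of Mcl1 and Bcl2l1, and other survival genes were not ranked.

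In morulae Bax was followed by Bad (27.4 CPM per kilobase) and Mcl1 (23.2), and Bad was the higher in 10 of 13 embryos. Bcl2l1 stood at 10.8, and Bid at 7.56 CPM per kilobase, with Bcl2l1 the higher in 8 of 13 embryos. Pmaip1 (4.10), Bcl2l11 (2.39), Bbc3 (0.534), Bcl2 (0.0736) and Bak1 (0.0588) closed the order. Of the effectors in the member list, morulae carried Bax RNA and almost none of Bak1, whose exons share 437 bases with Ggnbp1 on the other strand.

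**Figure D1:**
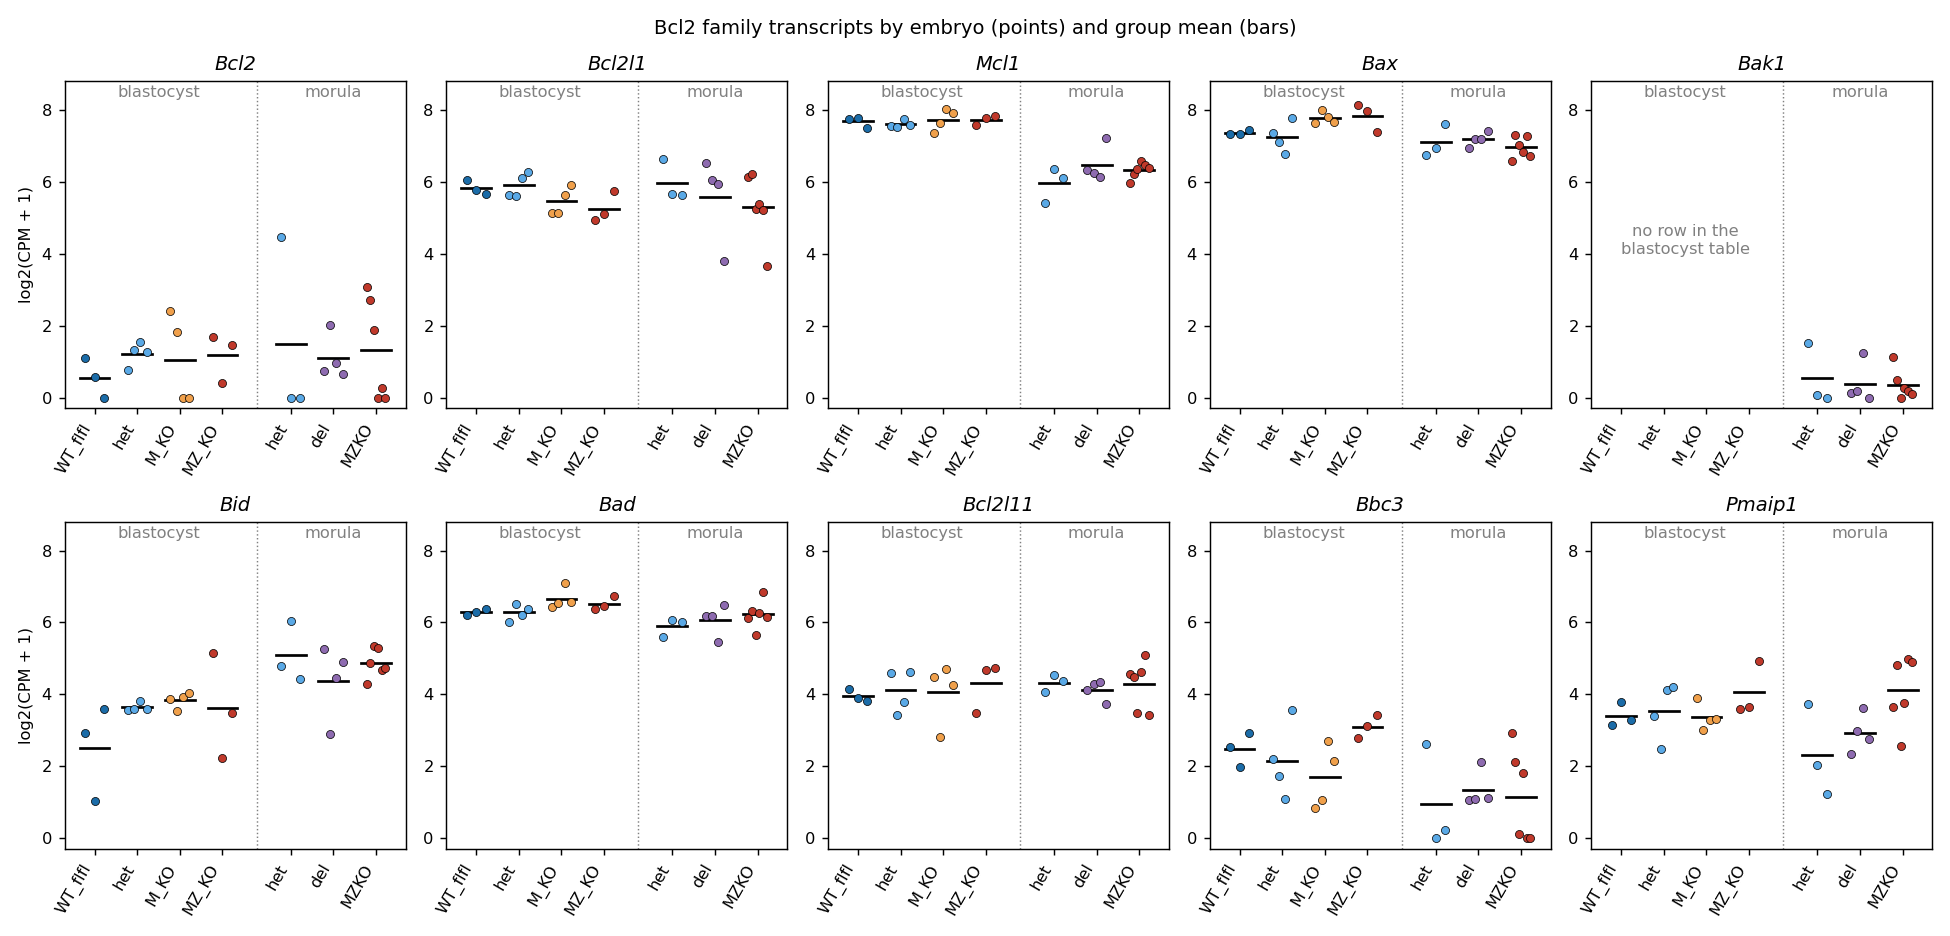
Level of each member in every embryo, as log2(CPM + 1) on the vertical axis, by group on the horizontal axis, with 1 point per embryo and a bar at the group mean. Mcl1, Bax and Bad lie high in blastocysts, Mcl1 with the least spread of these, while Bcl2, Bbc3 and Bak1 lie near the bottom and Bid and Pmaip1 spread widely.

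No member changed past the threshold in blastocysts without Ctcf. Group means were fitted with limma on log2(CPM + 1), and an adjusted p under 0.05 over all genes tested (Benjamini-Hochberg, two-sided) counted as a call. Between MZ_KO and het, 0 of the 7 tested members were called, where 17.9% of 9585 genes were. Between MZ_KO and WT_flfl it was 0 of 7, where 13.2% of all genes were called, and between MZ_KO and M_KO 0 of 7, where 11.8% were. At an unadjusted p under 0.05, 2, 0 and 0 of the 7 passed in these comparisons, against 31.9%, 28.7% and 26.5% of all genes. limma voom on the recovered reads also called 0 members in each, with 2, 0 and 0 under an unadjusted 0.05. The comparisons share the MZ_KO embryos. The median log2 fold change of the tested members was 0.20 against het, 0.35 against WT_flfl and 0.00 against M_KO, beside medians over all genes of -0.06, -0.05 and -0.03.

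Bax (ENSMUSG00000003873, chr7:45461697-45466898, minus strand, GRCm38) came nearest to a call. Its level was 281, 250 and 166 CPM in MZ_KO 2, 6 and 7, and 162, 136, 109 and 218 CPM in het 3, 5, 6 and 8. It was 197, 256, 221 and 200 CPM in M_KO and 160, 160 and 171 CPM in WT_flfl. MZ_KO 2 and 6 lay above every het and WT_flfl embryo, while MZ_KO 7 lay among them. MZ_KO against het gave a log2 fold change of 0.58 (SE 0.22, 95% confidence interval 0.12 to 1.04, adjusted p = 0.0738), a fold of 1.5 with an interval of 1.09 to 2.05. Single embryos decide this value: without MZ_KO 7 it was 0.81 (adjusted p = 0.0223) and without het 8 it was 0.76 (adjusted p = 0.0181), both calls, and over all 14 alternatives the adjusted p ran from 0.0181 to 0.273. Against WT_flfl the difference was 0.47 (interval -0.02 to 0.95, adjusted p = 0.197). Bax shares 192 exon bases with Gm45808 on its own strand, so some of its reads are uncertain.

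M_KO embryos, which carried Ctcf RNA at 53.2 to 89.4 CPM, overlapped MZ_KO in Bax. The fitted MZ_KO against M_KO difference was 0.06 (interval -0.40 to 0.52, adjusted p = 0.889), which leaves room for a change of either sign. All 4 M_KO embryos stood above all 3 WT_flfl embryos for Bax, and so they did for Bad. In this pair of groups 6.7% of the tested genes lay apart, in either direction. By limma 0 of the 7 members were called in M_KO against WT_flfl, M_KO against het and het against WT_flfl, where the share over all genes was 0.0% each time. At an unadjusted p under 0.05 these held 1 (Bid), 2 (Bax and Bad) and 0 of the 7 members, and 5.15%, 6.66% and 1.95% of all genes, and voom gave 1, 2 and 0. M_KO against het gave 0.52 for Bax (interval 0.10 to 0.94, adjusted p = 0.722) and 0.38 for Bad (interval 0.00 to 0.75, adjusted p = 0.743).

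Bcl2l1 (ENSMUSG00000007659, chr2:152780668-152831728, minus strand), the second by level of the listed survival members, had a negative fitted difference. It stood at 29.4, 33.2 and 52.5 CPM in MZ_KO 2, 6 and 7, and at 48.6, 47.6, 68.4 and 75.6 CPM in het. It stood at 34.1, 34.3, 48.3 and 59.7 CPM in M_KO and at 65.5, 53.3 and 49.6 CPM in WT_flfl. MZ_KO 2 and 6 were the lowest blastocysts of all, and MZ_KO 7 again lay among the controls. The difference from het was -0.65 (SE 0.27, interval -1.22 to -0.08, adjusted p = 0.107), a fold of 0.638 (0.430 to 0.947). Without MZ_KO 7 it was -0.89 with an adjusted p of 0.0444, a call, and over 14 alternatives the adjusted p ran from 0.0444 to 0.321. Against WT_flfl it was -0.57 (interval -1.18 to 0.04, adjusted p = 0.205) and against M_KO -0.20 (interval -0.77 to 0.37, adjusted p = 0.683).

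The ratio of Bax to Bcl2l1 per kilobase, set up after both genes' values were seen and so given without a test, followed the same embryos. It was 27.8, 21.9 and 9.17 in MZ_KO 2, 6 and 7 and 16.8, 21.8, 13.3 and 9.75 in M_KO. It was 7.12, 8.76 and 10.04 in WT_flfl and 9.72, 8.30, 4.61 and 8.40 in het. The C7 embryos reached higher than the N89 embryos, and the sets met at MZ_KO 7 and M_KO 5. In morulae the ratio ran from 3.99 to 26.3 in MZKO, from 3.88 to 38.5 in del and from 3.19 to 11.5 in het, with the top value in del 6, the shallowest library.

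**Figure D2:**
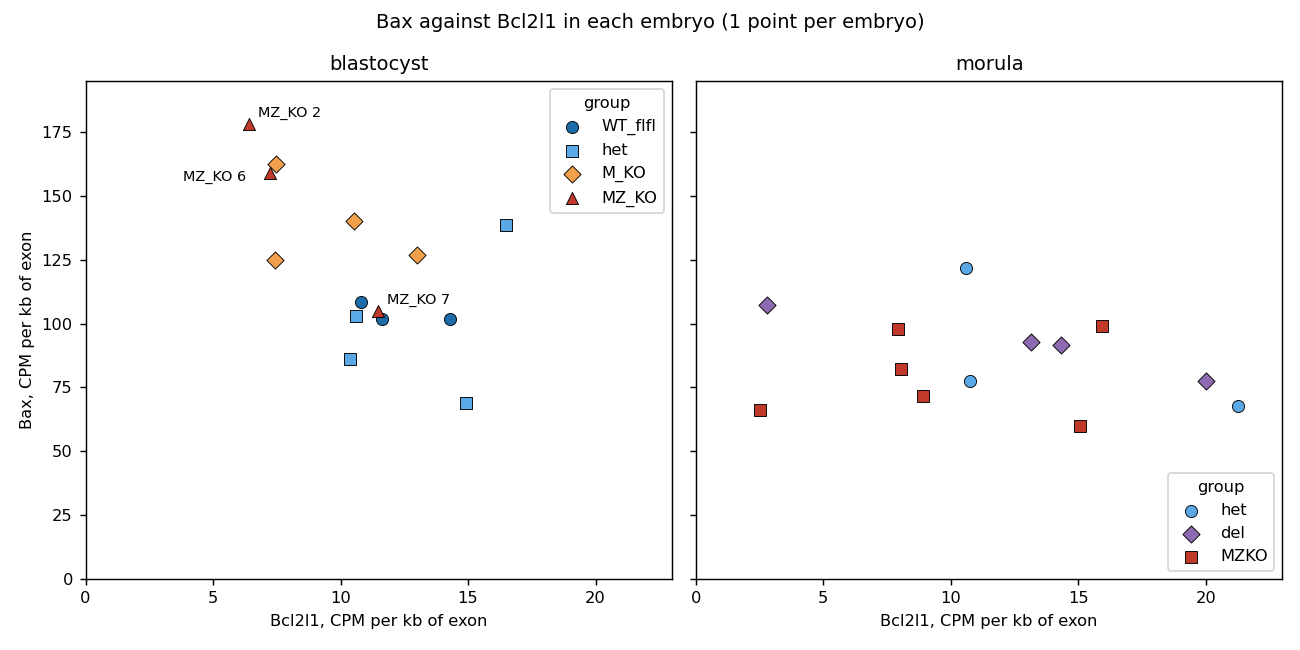
Bax (vertical axis) against Bcl2l1 (horizontal axis), both in CPM per kilobase of exon, with 1 point per embryo and the marker showing the group. MZ_KO 2 and 6 lie at the upper left of the blastocyst panel, near M_KO 3, MZ_KO 7 lies beside the WT_flfl embryos, and the morula groups are mixed.

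Mcl1 (ENSMUSG00000038612, chr3:95658788-95663176, plus strand), which encodes a short-lived survival protein that early embryos need, was the steadiest member in blastocysts. It stood at 191, 218 and 226 CPM in MZ_KO, 162, 196, 259 and 240 CPM in M_KO, 215, 217 and 181 CPM in WT_flfl and 185, 184, 215 and 191 CPM in het. All groups overlapped, and the highest of the 14 embryos was 1.6 times the lowest. MZ_KO against het gave 0.12 (interval -0.22 to 0.47, adjusted p = 0.635), so a fold from 0.860 to 1.38 lies within the interval. Bcl2 was scarce, at 4.26 CPM or less in blastocysts, with 0 reads in M_KO 4, M_KO 5 and WT_flfl 9. Counting alone would allow up to 0.147 CPM in the last (3 reads, counting error only).

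The BH3-only genes gave no call in blastocysts and differed most in how far they spread. Bad, which is inactivated by survival kinases, stood at 81.6, 87.2 and 105 CPM in MZ_KO and at 63.5, 91.1, 73.1 and 82.4 CPM in het (0.24, interval -0.17 to 0.64, adjusted p = 0.423), with overlap. Bid, which links death receptors to mitochondria, stood at 34.2, 3.67 and 10.2 CPM in MZ_KO 2, 6 and 7 and at 6.55, 1.06 and 11.1 CPM in WT_flfl. These were the widest spreads, while het (10.9, 11, 13 and 11 CPM) and M_KO (13.6, 10.5, 14.3 and 15.3 CPM) were tight. Its difference from WT_flfl was 1.10 in MZ_KO (interval -0.32 to 2.51, adjusted p = 0.302) and 1.32 in M_KO (interval 0.00 to 2.65, adjusted p = 0.937), 2 comparisons that share the WT_flfl embryos. Reads of Bid are uncertain where its exons share 628 bases with Bcl2l13 on the other strand, and Bad shares 524 exon bases with Gpr137.

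Bcl2l11, a strong activator of Bax, stood at 10.2, 24.8 and 25.7 CPM in MZ_KO and at 23, 9.73, 12.9 and 23.7 CPM in het (0.20, interval -0.80 to 1.19, adjusted p = 0.810). Pmaip1, which neutralises Mcl1, stood at 11.1, 11.7 and 29.3 CPM in MZ_KO and at 9.52, 4.61, 16.5 and 17.3 CPM in het (0.51, interval -0.51 to 1.53, adjusted p = 0.498). Both pairs of groups overlapped.

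Bbc3, the p53 target whose window above holds the CTCF core, was too low for the test. It stood at 5.92, 7.62 and 9.66 CPM in MZ_KO, 0.798, 1.11, 5.48 and 3.48 CPM in M_KO, 4.80, 2.98 and 6.66 CPM in WT_flfl and 3.61, 2.33, 1.1 and 10.8 CPM in het. Every MZ_KO embryo lay above every M_KO embryo, where 22.1% of the tested genes, Bbc3 not among them, lay apart in either direction. Of all blastocysts het 8 was the highest. With the filter lowered to 1 CPM, MZ_KO against M_KO gave 1.41 (interval 0.13 to 2.69, limma adjusted p = 0.193) and MZ_KO against het 0.96 (interval -0.32 to 2.24, adjusted p = 0.352).

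**Figure D3:**
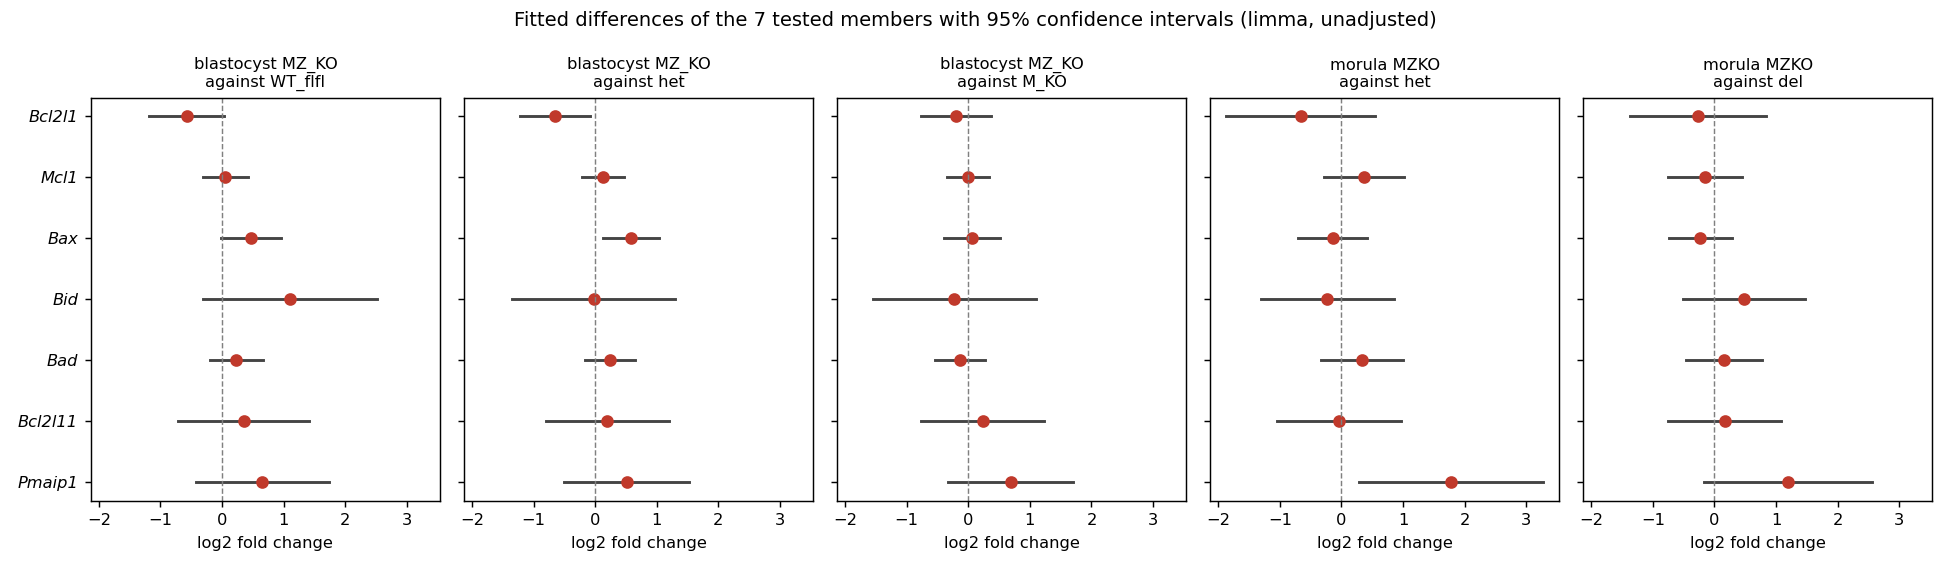
Log2 fold change on log2(CPM + 1) (horizontal axis) of the 7 tested members (vertical axis), with points for the limma estimate and lines for its unadjusted 95% confidence interval, in the comparisons of the MZ groups. Only Bax and Bcl2l1 in blastocyst MZ_KO against het and Pmaip1 in morula MZKO against het have intervals that leave out 0, and none of these passed after adjustment.

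Morulae gave no call either. By limma 0 of 7 members were called in MZKO against het, where 0.482% of 9953 genes were, 0 of 7 in del against het (0.01% of all genes) and 0 of 7 in MZKO against del (0.181%). An unadjusted p under 0.05 was reached by 1, 0 and 0 members and by 8.66%, 5.05% and 8.25% of all genes, and voom called 0 and left 0 under it in each. The median log2 fold change of the tested members was -0.04, 0.09 and 0.16 in these comparisons, beside -0.02, -0.04 and 0.02 over all genes.

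Pmaip1 was the member with an unadjusted p under 0.05. Its lowest, median and highest levels over 6 MZKO morulae were 4.93, 19.8 and 30.6 CPM. It stood at 4.04, 6.88, 11.2 and 5.81 CPM in del and at 12.2, 3.08 and 1.34 CPM in het. Of the 6 MZKO embryos, 4 lay above every het embryo and 5 above every del embryo, while MZKO 3 lay within both. MZKO against het gave 1.79 (SE 0.71, interval 0.29 to 3.28, adjusted p = 0.432), a fold of 3.45 (1.22 to 9.72), and MZKO against del 1.19 (interval -0.18 to 2.55, adjusted p = 0.667). The comparisons share the MZKO embryos, and del against het gave 0.60 (interval -1.02 to 2.21, adjusted p = 0.999).

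The other members overlapped between all morula groups. Bax stood at 122, 145, 146 and 169 CPM in del and 107, 122 and 192 CPM in het, and ran from 94.6 to 156 CPM in MZKO (MZKO against het -0.14, interval -0.71 to 0.42, adjusted p = 0.940). Bcl2l1 was variable, at 91.6, 65.7, 60.2 and 12.8 CPM in del, 97.4, 49.4 and 48.6 CPM in het and from 11.5 to 73.0 CPM in MZKO (-0.66 against het, interval -1.87 to 0.55, adjusted p = 0.828). Its low values were those of MZKO 8 and of del 6. Mcl1 ran from 61.6 to 93.6 CPM in MZKO and stood at 41.4, 81.4 and 67.8 CPM in het (0.37, interval -0.29 to 1.02, adjusted p = 0.828). In del it stood at 79.3, 74.6, 69.5 and 147 CPM, the last in del 6.

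Among the BH3-only genes of morulae, Bad ran from 49.5 to 114 CPM in MZKO, Bid from 18.4 to 39.5 CPM and Bcl2l11 from 9.70 to 33.4 CPM. In het they stood at 47.2, 66.5 and 63.2 CPM (Bad), 26.8, 65.1 and 20.6 CPM (Bid) and 15.6, 22.1 and 19.7 CPM (Bcl2l11). Their MZKO against het differences were 0.34, -0.23 and -0.04, with adjusted p of 0.840, 0.942 and 0.991 by limma. Bbc3 reached at most 6.58 CPM with 0 reads in 3 morulae, and Bcl2 had 0 reads in 4 morulae (up to 0.236 CPM allowed) and 21 CPM in het 1. Among morulae, het 1 and MZKO 1 had the most genes detected, 16329 and 16343. In chi-square per degree of freedom of their reads, het 1 lay 255 and 295 from het 5 and 7, which lay 111 apart. MZKO 1 lay 238 to 273 from the other MZKO embryos, which lay 65.1 to 131 apart. Het 1 also held the highest het levels of Bcl2l1 and Pmaip1, and the cause was not tested. Bak1, the second effector, stayed at or under 1.87 CPM and had 0 reads in 3 morulae. In the shallow del 6, 0 reads allow up to 1.74 CPM.

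The MZ effect against het was also compared between the stages, within 1 fit over 8572 genes tested in both. By limma 0 of 7 members differed, where 1.61% of all genes did, and 1 member and 17.7% of all genes had an unadjusted p under 0.05. voom gave 0 and 1 members. That member was Bax, with an effect 0.72 higher in blastocysts (interval 0.03 to 1.41, adjusted p = 0.255). For Pmaip1 the blastocyst effect minus the morula effect was -1.28 (interval -3.04 to 0.49, adjusted p = 0.464).

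By likeness of log2(CPM + 1) over the embryos, Bax went with Polr2f, a subunit shared by RNA polymerases (Pearson r = 0.93 over 14 blastocysts, across 4 groups), the ribosomal protein gene Rpl19 (0.92) and the processed pseudogene Gm15500 (0.90). Pmaip1 went with the receptor gene Bmpr2 (0.81 over 13 morulae), the cyclin gene Ccnd2 (0.80) and the peroxiredoxin gene Prdx1 (0.79). These are the closest of 9585 and 9953 genes, the embryos share library preparation and scaling, and no test was made.

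Around the family, single genes of the death pathway changed in blastocyst MZ_KO. Over all lists 8 of 47 tested genes were called against het, 7 against WT_flfl and 10 against M_KO, where the share over all genes was 17.9%, 13.2% and 11.8%. Against het and WT_flfl the lists' share lay near that of all genes. Voom called 6, 5 and 4 of the list genes, and 1430, 1068 and 802 of the 9585 genes. Against M_KO the lists' share lay above that of all genes under limma and near it under voom. The limma shares of all genes, 17.9%, 13.2% and 11.8%, are the background of each list's count. The inhibitor of apoptosis Birc2 (cIAP1), a ubiquitin ligase of death receptor complexes, stood at 1.87, 4.36 and 9.10 CPM in MZ_KO and at 14.3, 35.7, 29.5 and 27.8 CPM in het. No MZ_KO embryo reached a het embryo, where 26.9% of the tested genes lay apart in either direction. Birc2 fell by 2.30 on the log2 scale against het (SE 0.44, adjusted p = 0.00217), by 2.18 against WT_flfl (adjusted p = 0.00616) and by 2.12 against M_KO (adjusted p = 0.00512), and each call held when any 1 embryo was left out. Under voom the call was kept against het and lost against WT_flfl and M_KO. It was the 1 gene that fell of 7 tested inhibitors of apoptosis and their antagonists, and 0 rose, in each of these comparisons. Its paralogue Xiap, which blocks caspases directly, stood at 24.3 ± 8.01 CPM in MZ_KO and 17.9 ± 4.02 CPM in het (SD, n = 3 and 4) and was not called.

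Of 10 tested genes of the apoptosome and caspases, 1 rose and 1 fell in MZ_KO against het, 0 and 1 against WT_flfl, and 0 and 1 against M_KO. The shares of all genes called in these comparisons were 17.9%, 13.2% and 11.8%. Apaf1, the scaffold of the apoptosome, stood at 25.1, 5.65 and 13 CPM in MZ_KO, 24.7, 46.3, 56.5 and 19.3 CPM in het and 49.5, 52.4 and 35.6 CPM in WT_flfl. MZ_KO lay below every WT_flfl embryo, where 32.3% of the tested genes lay apart in either direction, and overlapped het. Apaf1 fell by 1.36 against het (adjusted p = 0.0332), by 1.78 against WT_flfl (adjusted p = 0.0143) and by 1.33 against M_KO (adjusted p = 0.0478). Leaving out 1 embryo ended the het call in 4 of 7 cases (MZ_KO 6, MZ_KO 7, het 5 or het 6, adjusted p up to 0.173), the WT_flfl call in 2 of 6 (MZ_KO 6 or WT_flfl 7, up to 0.0624), and the M_KO call in 6 of 7, all but MZ_KO 2 (up to 0.227). Voom and the looser filters also lost the calls against het and M_KO.

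The executioner caspase gene Casp6 rose by 0.65 against het, from 132 ± 7.55 to 212 ± 45.5 CPM (adjusted p = 0.0138, and 0.0819 without MZ_KO 2). Of 5 tested genes of the death receptor branch, 0 were called in any of the 3 comparisons by limma or voom, and 0 had an unadjusted p under 0.05 by either.

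Of 10 tested upstream regulators, 2 rose and 2 fell in MZ_KO against het, 1 and 2 against WT_flfl, and 3 and 2 against M_KO. Over all genes 17.9%, 13.2% and 11.8% were called in these comparisons. Foxo3, a transcription factor that drives Bcl2l11 and Bbc3 in other cells, stood at 47.7, 50.6 and 67.2 CPM in MZ_KO and 28.0, 21.6, 12.9 and 25 CPM in het. These groups did not overlap, where 26.9% of the tested genes lay apart in either direction. Foxo3 rose by 1.33 against het (adjusted p = 0.0106), by 1.46 against WT_flfl (adjusted p = 0.0115, and 0.0535 without WT_flfl 9) and by 1.20 against M_KO (adjusted p = 0.0264). The last call was lost in 5 of 7 leave-outs (M_KO 1, M_KO 5 or any MZ_KO embryo, adjusted p up to 0.0937). E2f1, a cell cycle factor that can induce apoptosis genes, fell by 0.97 against het (adjusted p = 0.0128, and 0.0626 without MZ_KO 6), by 1.21 against WT_flfl (adjusted p = 0.00667) and by 0.86 against M_KO (adjusted p = 0.0320). It was lost against M_KO in 4 of 7 leave-outs (M_KO 1, M_KO 4, M_KO 5 or MZ_KO 6, adjusted p up to 0.133) and under voom.

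Cdkn1a (p21) and Mdm2, both targets of p53 as Bax, Bbc3 and Pmaip1 are, were the top regulators in MZ_KO against M_KO. Cdkn1a stood at 82.6, 70.1 and 97.4 CPM in MZ_KO, 11.4, 12.3, 11.7 and 10.7 CPM in M_KO, 7.65, 18.5, 7.02 and 72.5 CPM in het and 43.3, 18.8 and 74.5 CPM in WT_flfl. M_KO was low and even, while het 8 and WT_flfl 9 overlapped MZ_KO. Cdkn1a rose by 2.74 against M_KO (SE 0.59, adjusted p = 0.00665) and by 2.24 against het (adjusted p = 0.0156), a call lost without MZ_KO 2 or het 6 (adjusted p up to 0.0513). Against WT_flfl it was not called. Mdm2 rose by 1.16 against M_KO, from 38.2 ± 13.6 to 83.3 ± 11.3 CPM (adjusted p = 0.00620), and was not called against het (0.33, adjusted p = 0.378), where it stood at 65.6 ± 4.48 CPM. Trp53 itself stood at 112 ± 18.6 CPM in MZ_KO and 97.7 ± 18.4 CPM in het (SD, n = 3 and 4) and was not called (0.20, adjusted p = 0.704). Myc, named after its values were seen, fell by 2.21, 2.16 and 2.51 against het, WT_flfl and M_KO (adjusted p = 0.0131, 0.0264 and 0.00892). Voom lost all 3 of these calls, and the first was lost without MZ_KO 7 and the second without MZ_KO 7, WT_flfl 1 or WT_flfl 7 (adjusted p up to 0.112).

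**Figure D4:**
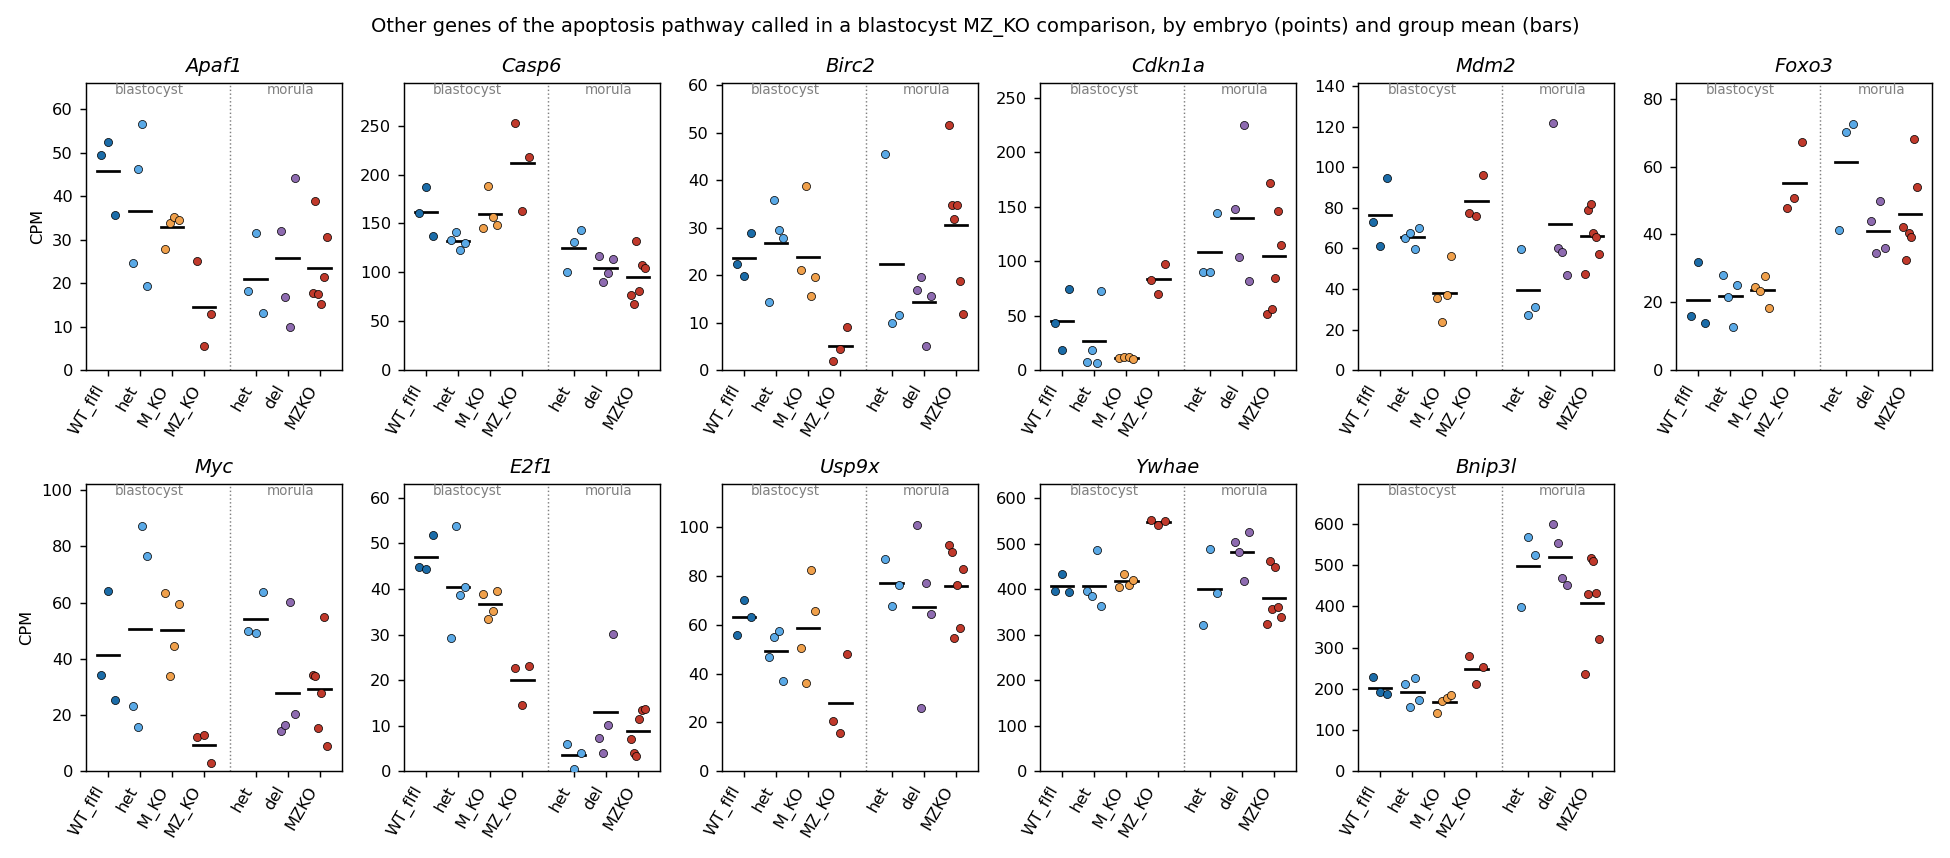
Level in CPM (vertical axis) of 11 other genes of the pathway that were called in at least 1 blastocyst MZ_KO comparison, by group (horizontal axis), with 1 point per embryo and a bar at the group mean. Birc2, Foxo3, Myc, E2f1 and Ywhae of MZ_KO stand clear of the other blastocysts, Cdkn1a stands clear of M_KO only, and no comparison of the morula groups was called for any of them. The genes were chosen by their calls in these embryos. Of all tested genes, 22.1% to 32.3% lay apart in a single MZ_KO pair of groups.

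Among mitochondrial partners and proteins that govern turnover of the family, 9 were tested. Ywhae, a 14-3-3 protein that binds phosphorylated Bad, rose by 0.43 against het (408 ± 54.5 to 548 ± 6.02 CPM, adjusted p = 0.0179, and 0.0547 without MZ_KO 2). Usp9x, a deubiquitinase that stabilises Mcl1, fell by 1.29 against WT_flfl and by 1.13 against M_KO (adjusted p = 0.0255 and 0.0373), and stood at 28.1 ± 17.4 CPM in MZ_KO against 63.1 ± 7.2 CPM in WT_flfl. Leaving out 1 embryo ended these calls in 5 of 6 and 5 of 7 cases (all but MZ_KO 7, and all but MZ_KO 7 and M_KO 3, adjusted p up to 0.177). Ywhae rose by 0.43 and 0.39 in the same comparisons (adjusted p = 0.0333 and 0.0393), calls lost in 6 of 6 and in 6 of 7 leave-outs, all but M_KO 3 (adjusted p up to 0.0999). Of 6 tested relatives of the family 1 was called in the 3 MZ_KO comparisons, against M_KO, where 11.8% of all genes were called. Bnip3l (Nix), a mitophagy receptor, rose there by 0.55 (adjusted p = 0.0395), a call lost under voom and in 5 of 7 leave-outs (all but MZ_KO 6 and M_KO 5, up to 0.156).

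Fitting only the groups compared, with fewer embryos to estimate the spread, ended further calls. It did so for Ywhae in all 3 comparisons (limma adjusted p from 0.0589 to 0.0648), Usp9x against WT_flfl and M_KO (0.0535 and 0.101), E2f1 against het and M_KO (0.0557 and 0.0939), Apaf1 against het and M_KO (0.0922 and 0.0834) and Bnip3l against M_KO (0.0605). Usp9x against M_KO was also lost under voom (0.0616) and both looser filters (0.0558), Bnip3l under both looser filters (0.0547) and Apaf1 against M_KO with a pseudocount of 0.1 CPM (0.0505).

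By limma and by voom, 0 of the 47 list genes tested in blastocysts were called in the comparisons among M_KO, het and WT_flfl, and 0 of the 49 tested in morulae. At an unadjusted p under 0.05 limma left 6, 2 and 2 of 47 in M_KO against WT_flfl, M_KO against het and het against WT_flfl. The shares of all genes there were 5.15%, 6.66% and 1.95%. In morulae it left 7, 2 and 2 of 49 in MZKO against het, del against het and MZKO against del, beside 8.66%, 5.05% and 8.25% of all genes. In the test between stages limma called 2 of 45 list genes, where 1.61% of all genes were called. Birc2 (-2.93, adjusted p = 0.0443) and Foxo3 (1.74, adjusted p = 0.0470) had different effects in blastocysts and morulae, the first not under voom and neither under the looser filters (adjusted p = 0.0611 with 1 CPM in 3 embryos). These calls were lost in 10 and 12 of 16 leave-outs of 1 embryo, with adjusted p up to 0.147 and 0.149. Birc2 kept its call only without morula MZKO 1, 6 or 8, morula het 1, blastocyst het 3 or MZ_KO 7, and Foxo3 only without morula MZKO 1, 6 or 8 or morula het 1.

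Levels of some cell type markers differed between the blastocyst groups. Whether the make-up of the embryos differed, and its part in these values, was not tested. The summed level of 7 trophectoderm markers was 3731 to 4917 CPM in MZ_KO, 4576 to 7332 CPM in het, 5345 to 9188 CPM in M_KO and 6937 to 7188 CPM in WT_flfl. Of the 6 that were tested, 2 were called against all 3 groups, Krt8 and Eomes, which fell. For all marker calls here, the shares of all genes called against het, WT_flfl and M_KO were 17.9%, 13.2% and 11.8%. The sum of 3 inner cell mass markers was 684 to 878 CPM in MZ_KO, 363 to 504 CPM in het, 504 to 654 CPM in M_KO and 463 to 590 CPM in WT_flfl, with Nanog higher in MZ_KO in all 3 comparisons. In an MZ_KO pair of groups, 22.1% to 32.3% of single tested genes lay apart in either direction. Of 4 primitive endoderm markers Gata4 and Sox17 fell, and the sum ran from 189 to 233 CPM in MZ_KO and from 164 to 527 CPM in het. Blood markers summed to 1638 to 7544 CPM in MZ_KO and 26.4 to 31495 CPM in het, and without WT_flfl 1 and het 6 still 0 members were called. Without these embryos the calls of Apaf1, Casp6, Cdkn1a and Myc against het, those of Usp9x and Ywhae against WT_flfl and both calls between stages were lost. In morulae limma called 0 trophectoderm and 0 blood markers. An unadjusted p under 0.05 was reached by 3 of 5 trophectoderm markers in del against het (median log2 fold change -2.21) and 2 of 5 in MZKO against het (-1.10). In the same comparisons it was reached by 4 and 3 of 4 blood markers (-5.56 and -3.45). Over all genes these shares were 5.05% and 8.66%. Oviduct markers summed to at most 1917 CPM in MZKO and 1265 CPM in het.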

How the data were processed

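Polyadenylated RNA of single embryos was copied with a SMART-Seq low input kit and sequenced on a HiSeq 2500, per the labels' protocols. The submitters' processing notes name cutadapt 1.14, Bowtie2 2.2.9 and RSEM 1.3.1 with GRCm38 and mm10, without their roles. Each stage has 1 table of log2 values as the authors deposited it, and undoing the logarithm and an offset of 0.5 reads gave whole reads for 100% of values within 0.01 reads. CPM is relative to the authors' scaled library size. No source used here says if counting took account of strand.

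The design is the one named in the report: limma 3.58.1 (R 4.3.3) on log2(CPM + 1), which understates changes of low genes, with a trended variance, all groups of a stage in 1 fit and at least 10 CPM in at least 3 embryos. The script was tested on simulated data. All members were named, and up to 2 called genes of every other list by smallest adjusted p, so that Myc is named outside this rule. The members and lists were chosen with earlier results of these data known. Exon lengths and overlaps come from GENCODE for GRCm38. The labels do not say which embryos share a mother, so p-values measure the spread between these embryos. 1 gene of these lists is not reported here. A repeat library of blastocyst het 3, sequenced in batch 2, was not analysed here. Alternatives were a pseudocount of 0.1 CPM, looser filters, voom, plain totals, only the compared groups, a replicate block, and embryos left out.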

Additional observations from a re-analysis of the deposited data

Results flagged for a closer look

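Within groups of 4 or more embryos, 7 of 38 member and group pairs had 1 embryo far from the others by Dixon's ratio (its gap over the range). The threshold flags about 1 in 20 sets of independent, normally distributed values. The pairs share embryos and several lie near 0 CPM, so this count cannot be set against that rate. Bid stood at 13 CPM in blastocyst het 6 with the other het embryos between 10.9 and 11 CPM, and Bad at 135 CPM in blastocyst M_KO 4 with the others between 85.6 and 94.0 CPM. In del morulae Mcl1 stood at 147 CPM in del 6 (others 69.5 to 79.3 CPM), Bcl2 at 3.05 CPM in del 3 (others 0.581 to 0.934 CPM), Bbc3 at 3.38 CPM in del 4 (others 1.10 to 1.16 CPM) and Bak1 at 1.37 CPM in del 4 (others 0 to 0.142 CPM). Bak1 stood at 1.17 CPM in morula MZKO 1, the others between 0 and 0.405 CPM. The Mcl1 value of del 6 rests on the shallowest library, with 253 reads of the gene, and the other flagged values in morulae are near 1 to 3 CPM.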

How the results depend on the processing

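Over 151 settings of the 10 comparisons, 149 called 0 members. The exceptions were MZ_KO against het without MZ_KO 7 (2 members) and without het 8 (1 member), so that leaving out 1 embryo gave 0 to 2 members there and 0 in the other comparisons. Alternatives were run gene by gene for Bax and Bcl2l1 in MZ_KO against het and for the called pathway genes that the text names, and none of these turned direction. Among values of named genes under alternatives, 280 stayed on their side of the threshold, 122 lost a call and 3 gained one. Counts over all genes moved more. Without WT_flfl 1 and het 6, 787 genes were called in MZ_KO against WT_flfl (1265 with all embryos), 1011 in MZ_KO against het (1711), 1 in M_KO against WT_flfl (0) and 61 in the test between stages (138). Voom called 24 in morula MZKO against het (48), 2 in MZKO against del (18), 0 in del against het (1) and 218 between stages. Plain read totals gave 2 in del against het and 228 between stages. In del against het the pseudocount of 0.1 CPM, both looser filters and the fit of only those groups each gave 0. Leaving out 1 embryo gave 783 to 1139 genes in MZ_KO against WT_flfl, 1058 to 1603 against het, 711 to 1104 against M_KO, 0 to 1 in het against WT_flfl, 29 to 90 in morula MZKO against het, 0 to 3 in del against het and 53 to 706 between stages. Causes were not tested, and each left-out fit also had fewer embryos. Embryo numbers do not pair the groups: same-numbered embryos correlated at -0.14 and -0.12 in M_KO and het, and at 0.08, -0.12, -0.04 and 0.14 in MZKO and del, where 2 of 4 numbers correlated best with their own. With the number as a replicate block M_KO against het called 4 genes (0 without) and MZKO against del 22 (18 without), with 0 members in both.

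With 3 to 6 embryos a group, the median half-width of an interval was 0.67 (log2) in blastocyst MZ_KO against het and 1.05 in morula MZKO against het. For a typical gene, a smaller fitted change leaves an interval that includes 0, and a call after adjustment asks for more. Genes with less spread were called at smaller changes, such as Ywhae at 0.43 in blastocyst MZ_KO against het. Bcl2, Bbc3 and Bak1 rest on few reads.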
